A study of Mus musculus with 2 samples.

Results

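The liver makes bile acids from cholesterol, and the enzymes that do this are among the most specialised products of hepatocytes. The 10 genes described here encode enzymes of bile acid synthesis and conjugation (Cyp7a1, Cyp7b1, Hsd3b7, Cyp8b1, Akr1d1, Cyp27a1, Amacr, Acox2, Slc27a5 and Baat). They were found by the gene name that the array design gives to each spot, out of 30153 gene names, and they have 11 probes and 29 spots on each array. A classical and an alternative route lead to the same products. The classical one starts with a hydroxylation of the sterol ring by Cyp7a1, and the other with an oxidation of the side chain by Cyp27a1 followed by Cyp7b1. The ring is then remodelled, the side chain is shortened in peroxisomes, and the acid is joined to an amino acid, mainly taurine in mice, before it is secreted into bile. High bile acid levels shut down the first step through the nuclear receptor FXR and through a growth factor signal from the gut.

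RNA from 2 cell preparations of Sox9-EGFP mice was compared, and 1 array was made of each. MHs (mature hepatocytes) came from healthy livers by collagenase perfusion, low speed centrifugation and a Percoll gradient. Sox9+EpCAM- cells came from the livers of mice fed DDC (3,5-diethoxycarbonyl-1,4-dihydro-collidine), a compound that injures the bile ducts, and were sorted by FACS as GFP+EpCAM- cells. GFP stands for Sox9 expression in these mice, and both groups carry the transgene. The labels give both samples as male, and markers of sex on the MH array went against this (values are given with Cyp7b1). The age and the number of the mice behind the arrays are not given in the sources used here. Diet, injury and the way of isolation all differ between the groups and cannot be told apart.

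For both samples, the probes gave 1 fluorescence intensity per spot, which was divided by the 75th percentile of its array (741 on the MH array, 1110 on the Sox9+EpCAM- array) before groups were compared. All log2 differences are Sox9+EpCAM- minus MH on that scale. Among the 43020 spots for genes, the scanner software marked 27523 as well above background for MHs and 32158 for Sox9+EpCAM- cells. There is 1 array per group, so no difference has a test, and a difference was counted when it reached 4-fold (the rule of size). The scanner software gives each intensity an error of its own (written after ±), which covers the spot and not the variation between mice. For 255 probes with 8 or more spots that were measured on both arrays, the median SD of the log2 difference between spots was 0.08. Hepatocyte RNA was abundant in both samples, as Alb, which encodes albumin, gave 207000 in MHs and 170000 in Sox9+EpCAM- cells.

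Most bile acid enzymes were lower in Sox9+EpCAM- cells than in MHs. Of the 10 genes, 6 were at least 4-fold lower (Cyp7a1, Slc27a5, Cyp8b1, Akr1d1, Cyp7b1 and Acox2), against 5.57% of the 23417 genes with a difference, and 0 were at least 4-fold higher, against 5.59%. At 10-fold, 3 of the 10 were lower, against 1.47% of all genes, and 0 higher, against 1.55%. At 2-fold, 8 were lower, against 16.7%, and 0 higher, against 14.2%. By any size, 9 of the 10 were lower, against 51.6%. The median log2 difference of the 10 genes was -2.20, a level 4.58-fold lower, and that of all genes was -0.04. All 10 could be measured above background in MHs and 9 in Sox9+EpCAM- cells. Fewer cells that express a gene and less RNA of it per cell cannot be told apart in such bulk samples.

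**Figure D1:**
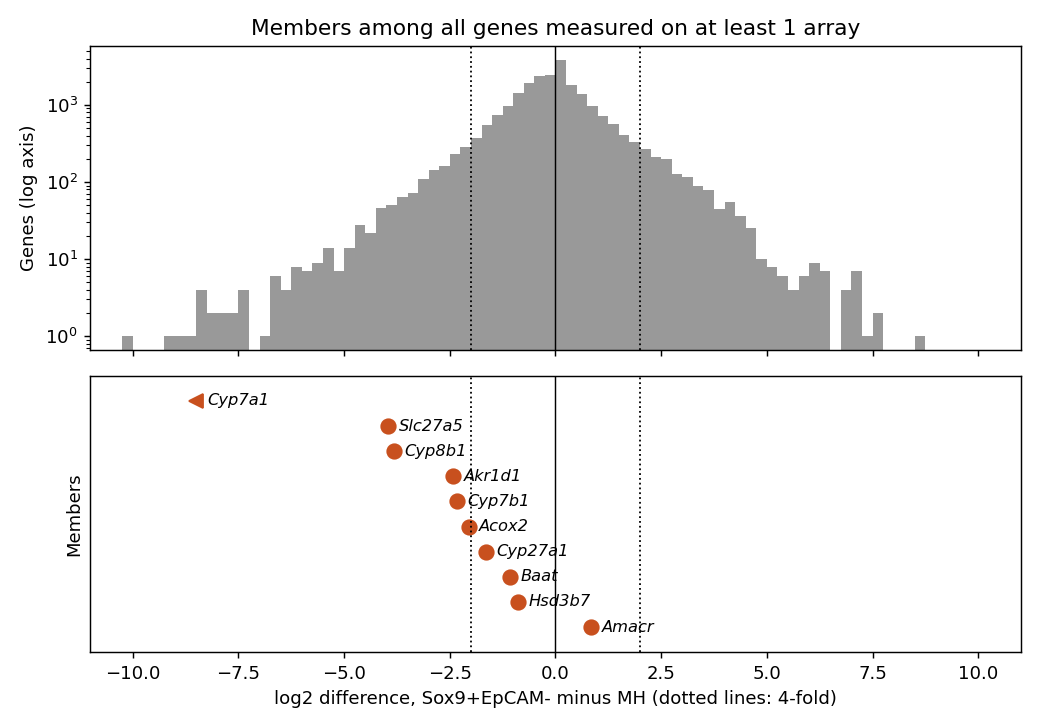
The upper panel counts all 23417 genes by their log2 difference (Sox9+EpCAM- minus MH, x axis, with the number of genes on a log axis). The lower panel places the 10 enzymes on the same axis, with an arrow for Cyp7a1, which was not well above background in Sox9+EpCAM- cells. Cyp7a1 lies at -8.49, 5 further enzymes lie between -3.96 and -2.05, beyond the dotted line of 4-fold, and Amacr alone lies above 0, at 0.85.

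The order of the enzymes did not follow the order of the pathway. Larger and smaller differences stood side by side at each stage: in the first hydroxylation, in the remodelling of the ring, in the side chain and in conjugation. The plot of the intensities shows this step by step, from the first hydroxylases at the top to the conjugating enzymes at the bottom.

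**Figure D2:**
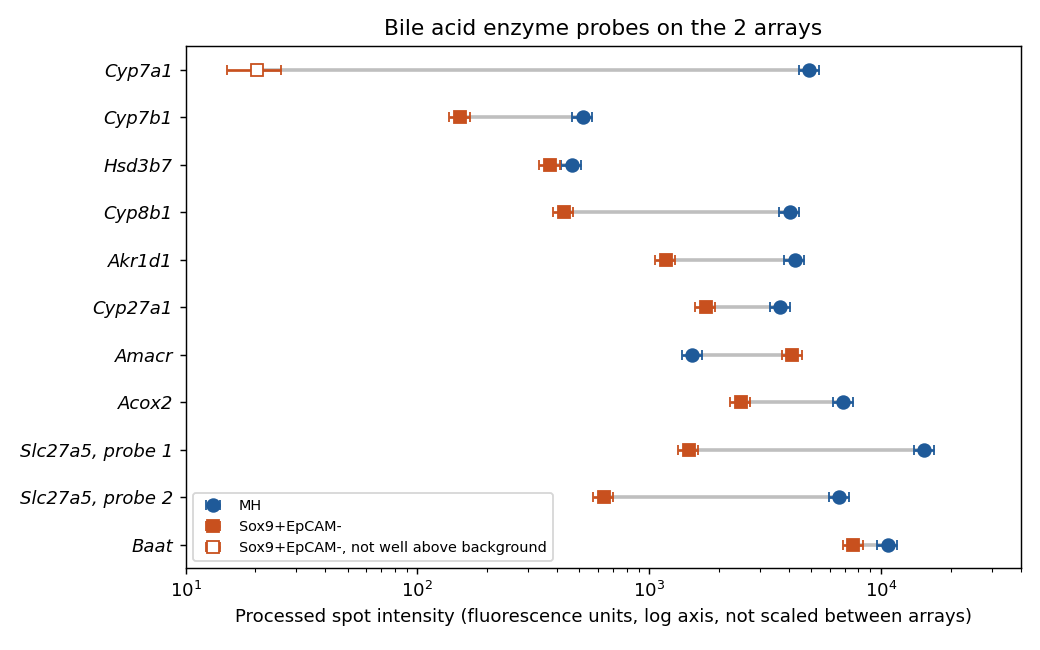
Processed intensity of each of the 11 probes (x axis, fluorescence units, log axis, before scaling between arrays) on the MH array (circles) and on the Sox9+EpCAM- array (squares), with the error of the scanner software as bars. Cyp7a1 goes from 4910 to 20.4, which is not well above background (open square), both probes of Slc27a5 shift alike, and Amacr is the single probe that is brighter on the Sox9+EpCAM- array.

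Cyp7a1 encodes the hydroxylase that limits the rate of the classical pathway, and in the liver it is expressed by hepatocytes. Its probe gave 4910 ± 492 in MHs. In Sox9+EpCAM- cells it gave 20.4 ± 5.29, which was not well above background. This signal exceeded the lowest one that was well above background there (18.4), so the signal itself was used. Cyp7a1 was thus measured in MHs only. With that signal its level was 361-fold lower in the sorted cells, a log2 difference of -8.49, which is an estimate and not a bound. Background correction by the normexp method, which raises low signals by an offset, moved this estimate to -6.16. The probe behind this difference, the widest among the enzymes, ends with these 30 bases at chr4:6193456-6193485 (mm9, minus strand).
Cyp7a1: gaactgaatgtatccacataccttcccatg

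Cyp7b1 encodes the hydroxylase that acts on oxysterols in the alternative pathway. Its intensity was 517 ± 52.0 in MHs and 153 ± 15.8 in Sox9+EpCAM- cells. Cyp7b1 fell by 2.34 on the log2 scale, 5.06-fold. Both hydroxylases were therefore lower. With the Cyp7a1 signal that was not well above background, the gap between them was 71.2-fold, or 18.4-fold with normexp correction. With that correction the difference of Cyp7b1 was -1.96, just short of 4-fold. The last bases of its probe at chr3:17972286-17972315 (mm9, minus strand) hold the polyadenylation signal AATAAA, shown in capitals here and in the sequences that follow.
Cyp7b1: tcacaaaacctgtcataaAATAAAgcagtg

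Cyp7b1 is expressed more in male than in female mouse livers, and the 2 arrays did not match in markers of sex. Xist, the RNA of the inactive X chromosome, gave 1940 in MHs and 16.1 in Sox9+EpCAM- cells, where it was not well above background. Ddx3y and Kdm5d, genes of the Y chromosome, gave 8.43 and 6.03 in MHs, neither well above background, and 642 and 490 in Sox9+EpCAM- cells. The MH array thus went against its label. The difference in Cyp7b1 ran opposite to these markers, with the higher level on the array that had Xist. In a list of male-biased liver genes, 5 others were measured on both arrays and 0 of them reached 4-fold, and 3 more have only limits, which cannot show whether they did. Of 14 female-biased genes, 13 were lower by 4-fold or more, 6 of the 14 by limits, and the median over the 8 measured on both arrays was -5.78. Sex and injury cannot be told apart on these arrays, and the part of sex in any of the 10 enzymes was not tested.

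The ring is remodelled by Hsd3b7, Cyp8b1 and Akr1d1, and these 3 enzymes differed from each other. Hsd3b7 oxidises the hydroxyl group of the ring and moves its double bond, a step that both routes share. It gave 463 ± 47.0 in MHs and 374 ± 37.8 in Sox9+EpCAM- cells, and the log2 difference was -0.89 or 1.85-fold. This is smaller than the rule of size, and 19.1% of all genes had a lower difference. Its probe ends at chr7:134947281-134947310 (mm9, plus strand) and is shown because it also holds the polyadenylation signal.
Hsd3b7: atctggccaagcctagAATAAAatcctttt

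Cyp8b1 adds the hydroxyl group that makes cholic acid, and so sets the balance between cholic acid and the more hydrophilic bile acids of the mouse. Its intensity was 4040 ± 404 in MHs and 428 ± 43.1 in Sox9+EpCAM- cells. Cyp8b1 fell by 3.82 on the log2 scale, 14.1-fold, a difference lower than all but 0.914% of genes. Set against Hsd3b7, which acts before it, the decrease was 7.62-fold larger, a gap of 2.93 ± 0.29 on the log2 scale. Its probe ends at chr9:121824595-121824624 (mm9, minus strand).
Cyp8b1: gttaggctacatgcttcagtttctgaggga

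Akr1d1 reduces the double bond of the ring and gives bile acids their bent shape. It gave 4240 ± 424 in MHs and 1180 ± 118 in Sox9+EpCAM- cells. Akr1d1 fell by 2.43 on the log2 scale, 5.38-fold, which places it between Cyp8b1 and Hsd3b7. The ordering of these 3 enzymes was the same under each of the scalings and corrections tried.

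Promoter windows of RefSeq (GRCm38.p6) matched 5 of the 10 genes: Cyp27a1, Akr1d1, Hsd3b7, Cyp8b1 and Acox2. They were searched on both strands, from 250 bases before the start to 50 bases after it, for letters that receptors and factors of this pathway bind. The motif CAAGGNCA, which LRH-1 (Nr5a2) type receptors bind, was in 6.71% of 32851 promoter windows and in that of 1 of the 5 genes, Cyp8b1, at 60 bases before the start. AGGTCA, the half-site of nuclear receptors, was in 16.3% of windows and in that of Akr1d1, where its reverse complement TGACCT stood at 232 and at 210 bases before the start. A CAAGGNCA with T in the open place also holds an AGGTCA, so these motifs overlap. The arrangement called DR1, which joins a pair of AGGTCA half-sites with 1 base between them, was in 0.0396% of windows and in 0 of the 5 genes. CCAAT, a motif of many promoters, was in 37.4% of windows and in those of Cyp27a1 and Acox2. The 250 bases before the start are shown for Cyp8b1 (chr9:121916306-121916555, minus strand) and Akr1d1 (chr6:37529923-37530172, plus strand), the pair of lower ring enzymes that hold a receptor motif, with the matches in capitals.
Cyp8b1: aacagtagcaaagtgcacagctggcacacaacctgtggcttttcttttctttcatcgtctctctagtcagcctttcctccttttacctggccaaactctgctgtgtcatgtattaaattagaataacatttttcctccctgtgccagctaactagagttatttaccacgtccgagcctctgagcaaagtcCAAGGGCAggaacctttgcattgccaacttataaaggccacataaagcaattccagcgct
Akr1d1: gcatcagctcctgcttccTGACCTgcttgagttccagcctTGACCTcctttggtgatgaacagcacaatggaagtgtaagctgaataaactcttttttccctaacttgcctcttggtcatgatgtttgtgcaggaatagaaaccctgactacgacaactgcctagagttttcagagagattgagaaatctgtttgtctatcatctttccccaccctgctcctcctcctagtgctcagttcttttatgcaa
A match describes the sequence only and does not show that a factor binds there.

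The side chain is processed by Cyp27a1 in mitochondria and by Amacr and Acox2 in peroxisomes. The design prints the probes of Cyp27a1 and Amacr 10 times each, so the spread between spots is known for this pair. The lowest, median and highest spots of Cyp27a1 were 3380, 3730 and 3890 on the MH array and 1600, 1775 and 1830 on the Sox9+EpCAM- array. The spots of the arrays did not overlap. Cyp27a1, which oxidises the side chain and opens the alternative pathway, had a log2 difference of -1.65 ± 0.05 (SD over 10 spots), 3.14-fold lower and short of the rule of size. The gap to the larger decrease of Cyp8b1 was 4.50-fold.

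Amacr was the single enzyme with a higher level in Sox9+EpCAM- cells. It encodes the racemase that turns the methyl group of the side chain into the form that peroxisomal oxidation accepts, and it does the same for branched fatty acids. The lowest, median and highest of its spots were 1490, 1530 and 1590 on the MH array and 3860, 4180 and 4410 on the Sox9+EpCAM- array, after 1 of its 10 spots was left out as an outlier of the MH array. Its log2 difference was 0.85 ± 0.05 (SD over 9 spots), 1.80-fold higher, and 83.5% of all genes had a lower difference. Between spots the difference ranged from 0.77 to 0.91, so it is larger than the spread on the arrays, although smaller than the rule of size. Under the alternatives its difference lay between 0.67 and 1.54. The end of its probe, at chr15:10925169-10925198 (mm9, plus strand), is shown beside those of the lower enzymes.
Amacr: ctgcttatcagaacctctgattgaggaaaa

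**Figure D3:**
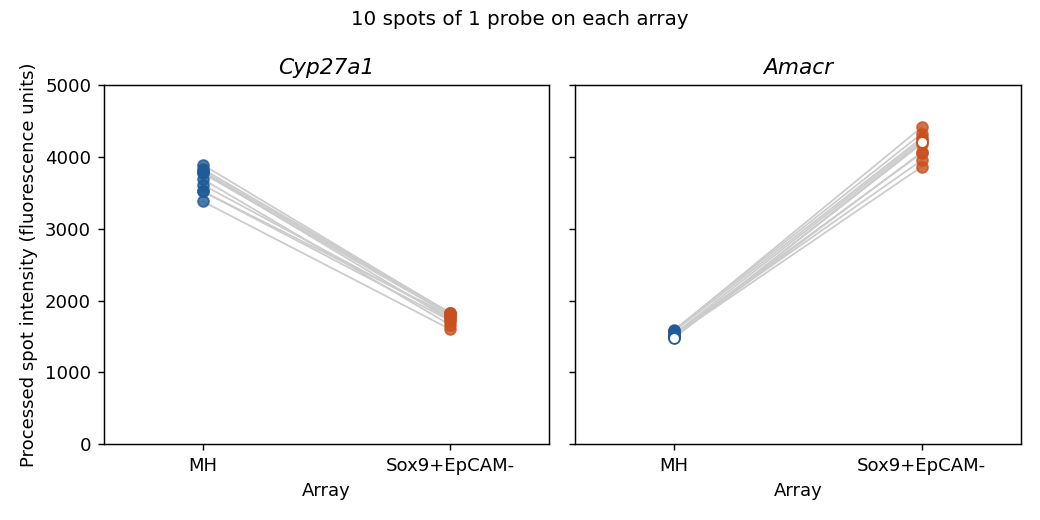
Processed intensity (y axis, fluorescence units, from 0) of the 10 spots of Cyp27a1 and of Amacr on the MH and Sox9+EpCAM- arrays, with lines joining spots at the same place and the left-out spot of Amacr as an open circle. Every spot of Cyp27a1 is dimmer on the Sox9+EpCAM- array, with medians of 3730 and 1775, and every spot of Amacr is brighter there, with medians of 1530 and 4180.

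Acox2, the oxidase that starts the shortening of the side chain after Amacr, moved the other way. Its intensity was 6870 ± 687 in MHs and 2480 ± 248 in Sox9+EpCAM- cells. Acox2 fell by 2.05 on the log2 scale, 4.15-fold, just inside the rule of size. Amacr and Acox2 act one after the other, and the gap between their differences was 2.90 on the log2 scale, 7.48-fold. Quantile normalization put Acox2 at -1.80 and normexp correction at -1.91, both short of 4-fold.

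Conjugation takes 2 enzymes, and only the first of them was lower by the rule of size. Slc27a5 joins the bile acid to coenzyme A, and Baat transfers it from there to taurine or glycine. Slc27a5 has 2 probes, whose starts lie 223 bases apart. The first gave 15400 ± 1540 in MHs and 1480 ± 149 in Sox9+EpCAM- cells. The second gave 6610 ± 661 and 636 ± 63.7, so each of them was higher in MHs. Both probes put Slc27a5 15.6-fold lower, a log2 difference of -3.96, and it is the single enzyme here that has more than 1 probe. The probes end at chr7:13573924-13573953 and chr7:13573701-13573730 (mm9, minus strand), and the second holds the polyadenylation signal.
Slc27a5, first probe: gtgcgtgagggttttgatgtggggatcatt
Slc27a5, second probe: agtacttagagAATAAActtgaatgtgtat

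Baat was lower by less than the rule of size. Its intensity was 10700 ± 1070 in MHs and 7610 ± 761 in Sox9+EpCAM- cells. After scaling, Baat was 2.11-fold lower, a log2 difference of -1.07, and 15.4% of all genes had a lower difference. The gap between Slc27a5 and Baat was 2.89 ± 0.29 on the log2 scale (error of the scanner software), 7.40-fold.

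Of the 11 probes, 0 have 20 bases in a row in common with a probe for some other gene, as 7.19% of all probes do. The polyadenylation signal AATAAA was in 3 of the 11 probes (Cyp7b1, Hsd3b7 and the second probe of Slc27a5) and in 12.6% of all probes. Whether the probes lie in coding or untranslated parts was not determined, since no annotation of mm9 was used here.

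Other enzymes and carriers of the pathway were looked at as a list. Of 21 measured genes in a list of such enzymes, 3 were at least 4-fold lower and 2 at least 4-fold higher, and their median was -0.76. Whether this list differs from the 10 enzymes was not tested. The 3 lower genes act on the steroid ring. Cyp3a11, which hydroxylates bile acids and drugs, gave 85800 in MHs and 337 in Sox9+EpCAM- cells, 381-fold lower. Cyp2c70, which makes the muricholic acids of the mouse, went from 14400 to 864 (a log2 difference of -4.64). Akr1c6, a hydroxysteroid dehydrogenase, went from 32900 to 2760 (a log2 difference of -4.16). The 2 higher genes handle cholesterol itself. Ch25h, an oxysterol-making cholesterol hydroxylase, did not stand well above background in MHs (9.20) and gave 394 in Sox9+EpCAM- cells, at least 9.46-fold higher. Star, which carries cholesterol into mitochondria, went from 60.7 to 413 (4.54-fold higher), and its other probe was short of 4-fold. Neither of the 2 reached 4-fold with normexp correction.

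The peroxisomal partners of Acox2 and Amacr stayed within 4-fold. The log2 difference was -0.76 for Scp2, the thiolase that ends side chain shortening, -0.27 for Hsd17b4, the enzyme between Acox2 and Scp2, and -0.24 for Abcd3, which brings the intermediates into the peroxisome. Por, the electron donor of Cyp7a1, Cyp7b1 and Cyp8b1, was at -1.58, and Fdxr, which serves Cyp27a1, was at -0.83. Acox2 was the lowest of these peroxisomal genes.

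Among 24 regulators of bile acid synthesis, 1 was at least 4-fold lower and 1 at least 4-fold higher, with a median of -0.29. The receptors of the feedback stayed within 4-fold: Nr1h4, which encodes FXR, gave 606 in MHs and 1220 in Sox9+EpCAM- cells, and the log2 difference was 0.43. Its target Nr0b2, which encodes the repressor SHP, gave 2070 and 4420, a log2 difference of 0.51. Fgfr4 and Klb, the receptor and co-receptor of the gut signal, were at 0.88 and 0.40. Among activators, Nr5a2 was at -0.24 and Hnf4a at -0.23. Nr1h3, which encodes the oxysterol receptor LXRα that activates Cyp7a1 in mice, was at -1.52, and its second probe at -1.68. The liver factors Cebpa and Foxa2 were at -1.29 and -1.23. None of these genes reached 4-fold.

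The 2 regulators past 4-fold were a receptor of drugs and a gene of the clock. Nr1i3, which encodes CAR, gave 23200 in MHs and 3480 in Sox9+EpCAM- cells, 9.99-fold lower, and its second probe was 6.23-fold lower. Nr1d1, which encodes the clock repressor REV-ERBα, gave 660 and 22900, 23.2-fold higher. Expression of Cyp7a1 follows a daily rhythm, and the hour of isolation is not given in the sources used here. Other output genes of the clock stayed within 4-fold, with -0.01 for Dbp, -0.60 for Tef and -1.35 for Hlf. The part of the clock in the level of the enzymes was not tested.

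**Figure D4:**
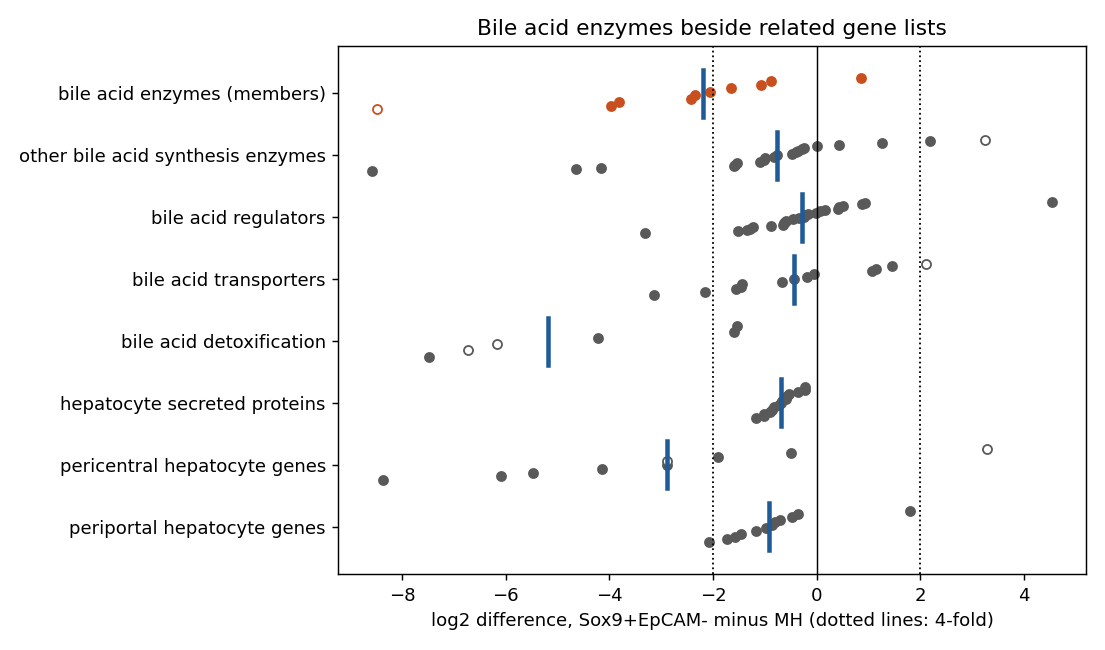
Log2 difference (x axis, Sox9+EpCAM- minus MH) of each gene of the bile acid enzymes and of 7 related lists, with the median of each list as a bar, limits as open circles and dotted lines at 4-fold. The median of the 10 enzymes is -2.20. Those of other synthesis enzymes, regulators, transporters, secreted proteins and periportal genes are -0.76, -0.29, -0.43, -0.69 and -0.92. Those of detoxification enzymes (-5.19) and pericentral genes (-2.89), both with limits, are lower than that of the 10 enzymes.

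Transporters of bile acids and bile lipids showed a mixed picture, with 2 of 13 at least 4-fold lower, 1 at least 4-fold higher and a median of -0.43. Slco1b2, an uptake carrier, went from 9330 to 1580, 8.85-fold lower, and Abcg5, which with Abcg8 secretes cholesterol, from 7730 to 2590, 4.47-fold lower. With quantile normalization or scaling to secreted proteins, 1 of the 13 was at least 4-fold lower. Abcc4, an export pump of the sinusoidal side, was not measured above background in MHs (11.9) and gave 180 in Sox9+EpCAM- cells, at least 4.32-fold higher, which was short of 4-fold with normexp correction, quantile normalization, Gapdh scaling and the deposited table. Slc10a1, the main uptake carrier of conjugated bile acids, was bright on both arrays (153000 and 170000), with a log2 difference of -0.43. The bile salt export pump gene Abcb11 was at -1.44.

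The enzymes were set beside markers of hepatocytes and of other cells. All 15 secreted protein genes of hepatocytes were lower in Sox9+EpCAM- cells after scaling, by log2 differences from -1.17 to -0.22, and 0 of them reached 4-fold. Their median was -0.69, and -0.17 with quantile normalization. When both arrays were scaled to these secreted proteins, a choice made after the data were seen, 3 enzymes were still at least 4-fold lower (Cyp7a1, Slc27a5 and Cyp8b1, against 2.82% of all genes), the median was -1.51, Hsd3b7 was at -0.20 and Amacr at 1.54. The medians of the regulators and the transporters then turned to 0.40 and 0.26, and that of the other synthesis enzymes was -0.07.

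Markers of other cells differed as well. Of 12 fibroblast and stellate cell markers, 6 were higher and 1 lower by the rule of size. Of these 12, 4 have only limits, and of the 8 measured on both arrays 3 were higher and 0 lower. The summed intensity of the list was 9568 in MHs and 61506 in Sox9+EpCAM- cells, or 1488 and 46506 without Dcn. Of 12 cholangiocyte markers, 2 were at least 4-fold higher, and the sums were 3186 and 56617, or 2928 and 9617 without Spp1. The first was Epcam, the gene of the protein that the sort selected against, with 139 in MHs and 2770 in Sox9+EpCAM- cells, and the other was Spp1, with 258 and 47000. Krt19, a keratin of bile ducts, gave 73.1 and 146, a log2 difference of 0.42. Sox9 itself was measured on the Sox9+EpCAM- array only, with 60.2. Of 15 leukocyte and macrophage markers, 9 were at least 4-fold lower and 1 higher, with sums of 128709 and 102771, or 36609 and 18071 without Itgam, which carried most of each sum. Csf1r made up much of the rest, with 12200 and 13700 by its brightest probe, and its other probes were 6.52-fold and 1.63-fold lower. Of 9 endothelial markers, all were lower and 4 at least 4-fold lower, with sums of 7065 and 3640. Pdgfrb and Lyve1 were not well above background on either array. The part of these cells in the lower level of the enzymes was not tested.

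**Figure D5:**
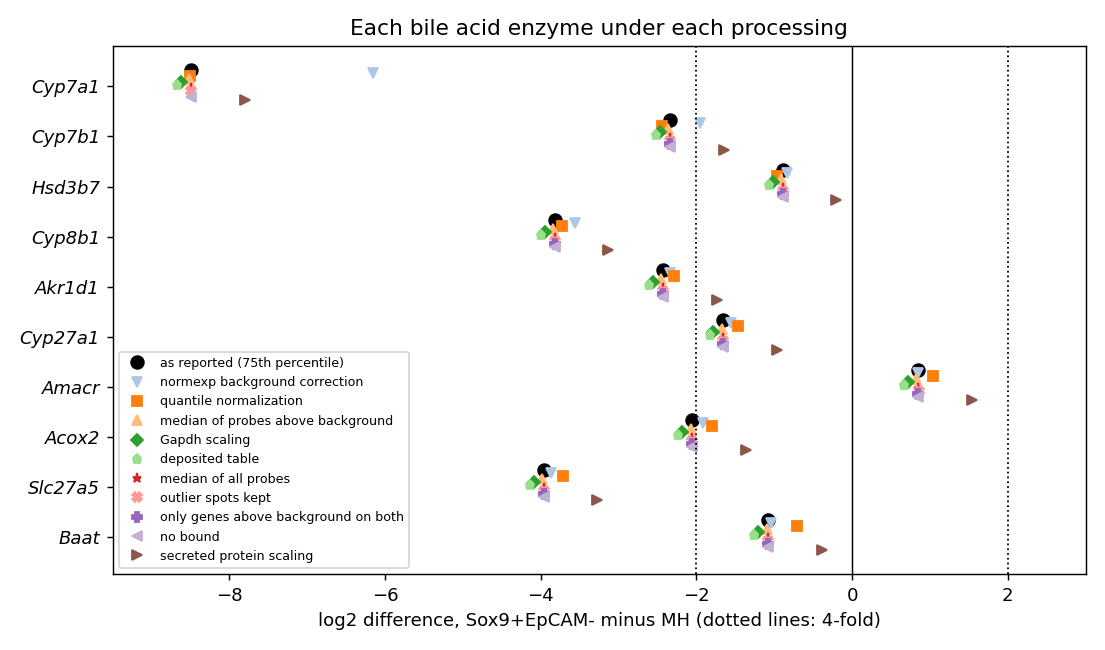
Log2 difference (x axis, Sox9+EpCAM- minus MH) of each enzyme under each way of processing, with dotted lines at 4-fold. The points of an enzyme lie close together except for Cyp7a1 under normexp correction, at -6.16, and for scaling to secreted proteins, which shifts all 10 enzymes upward and puts the median at -1.51.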

How the data were processed

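RNA of MHs and of Sox9+EpCAM- cells was labelled with Cy3 by a service provider and hybridised to 1 Agilent mouse array each, both on 1 slide. The authors deposited, per array, the spot intensities of Feature Extraction 10.7.3.1 after background subtraction, with their errors and flags and without normalization between arrays. They also deposited a table of ratio values, each the processed intensity over a constant of its array (SD of the log2 factor 0.0018). Probe coordinates are on mm9.

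Outlier spots were left out, spots of a probe were averaged, and each array was divided by its 75th percentile before log2 was taken. A gene is its brightest probe by the mean over both arrays. A probe not well above background on 1 array has only a limit there. The limit is its signal or, if higher, the smallest signal that passed as well above background (27.8 for MHs, 18.4 for Sox9+EpCAM- cells). A limit set at the signal itself, as for Cyp7a1, is an estimate and not a bound. Genes not well above background on either array have no difference, which left 23417 of 30153. Differences were called by size, at 4-fold, and with 1 array per group there is no test. The text names the 10 members, up to 6 genes of each list with the largest differences, genes whose role is described, and controls. The members, gene lists and alternatives were chosen with earlier results of these data known. Promoters are those of RefSeq for GRCm38.p6. The alternatives were normexp correction (limma 3.58.1, R 4.3.3, offset 50), other scalings, the deposited table, other rules for probes and dim spots, and other thresholds. Other steps ran in Python 3.11.15 (pandas 2.3.3, numpy 2.4.6, matplotlib 3.10.9). The procedure was tested on simulated data. There, well above background was a single cutoff of intensity on the second array, so a case like Cyp7a1 could not arise. The number of arrays limits the precision.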

Additional observations from a re-analysis of the deposited data

How the results depend on the processing

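The direction of each of the 10 enzymes was the same under every alternative. The count of enzymes at least 4-fold lower was 6 as reported (against 5.57% of all genes), 4 with normexp correction (2.82%), which put Cyp7b1 and Acox2 short of 4-fold, and 5 with quantile normalization (6.01%), which did so for Acox2. It was also 5 when only genes above background on both arrays were kept (4.75%), since Cyp7a1 then has no value. It was 8 at a threshold of 2-fold (16.7%), 3 at a threshold of 10-fold (1.47%), and 3 with scaling to the hepatocyte secreted proteins (2.82% lower and 10.5% higher), a choice added after the data were seen. That scaling moved the median of the enzymes from -2.20 to -1.51 and the median of all genes by 0.56 on the log2 scale. Scaling to Gapdh and the deposited table moved the median of all genes by -0.13 and -0.18. Under the other alternatives the median of the enzymes lay between -2.37 and -1.93, and 0 enzymes were at least 4-fold higher. Signal over background limits the value of Cyp7a1, which was not well above background in Sox9+EpCAM- cells and moved to -6.16 with normexp correction. No paired analysis was possible because there is 1 array in each group. For the same reason no replicate could be left out and the slide could not be used as a block.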

Other observations

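Enzymes that detoxify bile acids were also lower in the sorted cells. Of 6 measured genes, 4 were lower by the rule of size and 0 higher, and 2 of the 6 have only limits. The median log2 difference was -5.19 with the limits and -2.91 over the genes measured on both arrays. Cyp2b10, a drug-inducible hydroxylase and a target of CAR, gave 4990 in MHs and 41.8 in Sox9+EpCAM- cells, 179-fold lower. Sult2a1 and Sult2a2, which add sulphate to bile acids, gave 882 and 1310 in MHs and were not well above background in Sox9+EpCAM- cells (6.14 and 4.31), log2 differences of -6.17 and -6.74 or less. Both are also female-biased genes, and the markers of sex differed between the arrays. Ugt2b1, a glucuronosyltransferase, went from 8570 to 693, 18.5-fold lower. Cyp3a13 stayed within 4-fold at -1.54.

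Genes of the hepatocytes around the central vein, where Cyp7a1 is mainly expressed, were set beside genes of those around the portal vein. Of 9 measured pericentral genes, 6 were at least 4-fold lower, with a median of -2.89 (-4.14 over the 7 genes measured on both arrays), and of 12 periportal genes 1 was, with a median of -0.92. This difference between the lists was not tested. Cyp1a2 went from 18500 to 84.1 (330-fold lower), Cyp2e1 from 56100 to 1900 (44.2-fold lower) and Oat from 13200 to 1120 (17.7-fold lower). Axin2, a target of Wnt signals, was an exception: 1 probe was 9.82-fold higher, with an MH signal that was not well above background. This call was lost with normexp correction, and the other probe was not well above background on either array. The probe of Glul, glutamine synthetase, was not well above background on either array, so this defining gene gives no value here. Among periportal genes, Ass1 of the urea cycle was 4.20-fold lower, a call that was lost with quantile normalization and with scaling to secreted proteins. With the median of all probes, 2 periportal genes were at least 4-fold lower. Sds was 1.75-fold lower by its brighter probe, the one used, and 20.6-fold lower by its other probe. Pck1, a gene of glucose production, had a log2 difference of -0.70.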
